A study of Rattus norvegicus with 3 samples.

Results

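The cytokine genes described here are 10 rat genes: the interleukins Il6, Il1b, Il1a, Il18 and Il33, the interleukin-1 receptor antagonist Il1rn, the receptor Il1r1, and Tnf, Lif and Csf1. They were chosen by name, with earlier results of these data known, through probes whose accession belongs to the gene in RefSeq. A probe was matched for 9 of the 10, of 15155 genes matched in all. No probe matched Il1r1, which was not analysed here. RNA came from cultured ventricular cardiomyocytes of newborn rats in 3 groups, each a pool of cells read on 1 Agilent one-colour array. Control cells received the empty vector, HSD1 cells received an 11β-HSD1 expression vector, and HSD1+BVT cells received that vector and the 11β-HSD1 inhibitor BVT.2733. Every group was therefore transfected. The sources used here give no dose, no exposure time, no count of cultures in a pool and no species for the insert.

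Interleukin-1 alpha and beta bind the same receptor and start the acute inflammatory response, while the receptor antagonist binds that receptor without signalling. Interleukin-6 and leukemia inhibitory factor signal through the shared subunit gp130 to STAT3, and leukemia inhibitory factor is a known growth stimulus for cultured cardiomyocytes. TNF is an early inflammatory cytokine, and CSF-1 is the growth factor of macrophages. 11β-HSD1 regenerates active glucocorticoid, a class of hormone long known to restrain transcription of inflammatory cytokine genes.

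The question behind the study was the part 11β-HSD1 plays in hypertrophy of cardiomyocytes. With 1 array per group there is no spread between cultures, so no test was possible and no p-value is given; every difference compares 2 arrays of pooled cells. A level is the log2 of a probe's processed signal relative to the 75th percentile of its array, so a level of 0 is that percentile. A gene was called higher or lower where 2 arrays differed 2-fold or more and both were well above background. The arrays correlated at r = 0.99 or more. All 10 cardiomyocyte markers examined were well above background on every array. Hsd11b1, the gene carried by the vector, stood at 3.39, 3.86 and 3.76 on the Control, HSD1 and HSD1+BVT arrays, under 2-fold apart; its probe may or may not bind RNA made from the insert. Control and HSD1 were read in scan 1 and HSD1+BVT alone in scan 2, which means that an effect of the scan and one of the inhibitor cannot be told apart.

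The array measured these genes with unequal precision. Probes of Il6, Il1b, Il1a and Csf1 were printed 10 times on each array, whereas Il1rn, Il18, Il33, Tnf and Lif each rest on 1 spot. The SD between 10 spots of a probe is a technical error and says nothing of the spread between cultures. For a single spot, the error given is the SD of a ratio of single spots among repeated probes of like signal (within 0.5 on the log2 scale). Every one of the 9 matched genes exceeded background clearly on each array. Lif was the nearest to background, at 3.64, 3.58 and 4.58 times the lowest measured signal of Control, HSD1 and HSD1+BVT.

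Il6 and Il1b, the 2 members called in any comparison, were about 3-fold lower with the 11β-HSD1 vector than in Control, and about as low with the inhibitor added. Il1a and Tnf were lower by less than 2-fold, and Il1rn, Il18 and Il33 were higher by less than 2-fold. Of the 9 measured members, 2 were lower 2-fold or more with the vector and none was higher, where 0.548% of 11871 genes were lower and 1.33% higher. Because the members were chosen with earlier results of these data known, these shares describe the members and are not a test. Among the 2849 genes with mean levels from -4 to -2, where Il6 and Il1b lie, 0.527% were lower 2-fold or more. The median log2 ratio of the members was -0.19, beside 0.06 over all genes, and 5 of the 9 lay below 0, as did 40.8% of all genes. In these bulk samples, fewer cells of a type and less RNA per cell cannot be told apart.

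The sequences upstream of Il6, Il1b, Il1a and Il1rn are shown because the first 3 were the lowest members with the vector and Il1rn lay in the other direction. Of the 10 genes, 8 had a promoter entry. Each window is the 250 bases before the start, from RefSeq on build GRCr8, in the 5′ to 3′ direction of the gene. Capitals mark matches on either strand to the motifs searched, which were the κB motif (GGGA, then 4 bases of any kind, then CC), the glucocorticoid half-site AGAACA, the full site (AGAACA, then 3 bases of any kind, then TGTTCT), the cyclic AMP element TGACGTCA, the AP-1 motif TGANTCA and the TATA motif TATAAA.
Il6, chr4:5894576-5894825, minus strand: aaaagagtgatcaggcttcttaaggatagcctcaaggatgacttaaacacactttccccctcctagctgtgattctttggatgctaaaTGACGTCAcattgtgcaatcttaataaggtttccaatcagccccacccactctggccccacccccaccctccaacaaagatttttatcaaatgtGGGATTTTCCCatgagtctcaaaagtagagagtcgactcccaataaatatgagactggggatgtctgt
Il1b, chr3:137036582-137036831, minus strand: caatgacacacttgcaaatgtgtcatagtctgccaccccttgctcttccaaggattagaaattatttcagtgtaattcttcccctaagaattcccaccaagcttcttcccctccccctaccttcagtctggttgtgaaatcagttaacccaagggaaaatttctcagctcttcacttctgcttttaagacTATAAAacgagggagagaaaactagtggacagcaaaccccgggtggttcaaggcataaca
Il1a, chr3:136990018-136990267, minus strand: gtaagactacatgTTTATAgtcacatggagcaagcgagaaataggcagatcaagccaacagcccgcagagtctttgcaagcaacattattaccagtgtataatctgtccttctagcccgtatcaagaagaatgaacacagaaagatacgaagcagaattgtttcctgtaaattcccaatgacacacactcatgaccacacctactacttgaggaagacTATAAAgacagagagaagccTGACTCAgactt
Il1rn, chr3:27520072-27520321, plus strand: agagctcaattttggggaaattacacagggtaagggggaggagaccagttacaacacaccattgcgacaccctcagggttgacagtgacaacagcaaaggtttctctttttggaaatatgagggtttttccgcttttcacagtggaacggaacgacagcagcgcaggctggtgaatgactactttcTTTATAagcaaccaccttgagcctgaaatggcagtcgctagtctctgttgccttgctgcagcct

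In the Il6 window the κB motif matched on both strands at overlapping positions, 68 to 58 bases before the start, and the cyclic AMP element matched at 162 to 155 bases. Of 33469 promoters in the table, 16.4% held the κB motif and 1.59% held the cyclic AMP element. The Il1b window held the TATA motif alone, at 60 to 55 bases, and 12.9% of promoters held it. The Il1a window held it at 32 to 27 bases and, on the opposite strand, at 237 to 232 bases, and it held the AP-1 motif, found in 6.34% of promoters, at 12 to 6 bases. The Il1rn window held the TATA motif on the opposite strand, at 64 to 59 bases. Neither glucocorticoid motif was found in the 4 windows, and 17.5% of promoters held the half-site and 0.012% the full site. These matches describe letters in a short window and are not evidence of binding.

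Il1b encodes interleukin-1 beta, a precursor that caspase-1 cleaves before release. Control had a level of -1.83 ± 0.049 (SD, 10 spots), HSD1 one of -3.41 ± 0.095 and HSD1+BVT one of -3.30 ± 0.076. As a share of the array's 75th percentile these levels were 28.2%, 9.43% and 10.2%. All 10 Control spots lay above all spots of the other arrays, with 1.42 between the nearest Control and HSD1 spots on the log2 scale, while the HSD1 and HSD1+BVT spots overlapped. The gene was 2.99-fold lower with the vector, a log2 ratio of -1.58 with an SE from spots of 0.034, and 13 of the 11871 genes had lower ratios.

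Il6 encodes interleukin-6, a cytokine made by many stromal and immune cells. The Control level was -1.74 ± 0.042 (SD, 10 spots), the HSD1 level -3.27 ± 0.045 and the HSD1+BVT level -3.37 ± 0.040, or 29.9%, 10.3% and 9.68% of the 75th percentile. Again the Control spots stood apart from both other arrays, by 1.39 at the nearest to HSD1, and the spots of the HSD1 and HSD1+BVT arrays overlapped. The gene was 2.89-fold lower with the vector (log2 ratio -1.53, SE from spots 0.020), with 15 genes lower than it. The log2 ratios of Il6 and Il1b with the vector differed by 0.05, a difference between -0.01 and 0.06 under 5 other scalings and background corrections.

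Il1a encodes interleukin-1 alpha, which is active without cleavage by caspase-1 and can act from within the cell that makes it. Its brighter probe gave -2.83 ± 0.054 for Control (SD, 10 spots), -3.72 ± 0.039 for HSD1 over 8 spots, and -3.62 ± 0.12 for HSD1+BVT over 10 spots. Control spots did not overlap those of HSD1 or HSD1+BVT, and the latter arrays overlapped each other. The ratio with the vector was 1.85-fold lower, log2 -0.89 with an SE from spots of 0.022, just under the 2-fold threshold. The other Il1a probe is a single dim spot, with levels of -4.71, -4.95 and -5.41 in Control, HSD1 and HSD1+BVT. Its log2 ratio with the vector was -0.24, little more than the SD of 0.19 for single spots of like signal, so with the vector the probes gave the same direction and different sizes.

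Il1rn encodes the receptor antagonist, the natural inhibitor of both interleukin-1 forms. The level was 1.30 for Control, 1.84 for HSD1 and 1.51 for HSD1+BVT, highest with the vector alone. The gene was 1.46-fold higher with the vector (log2 ratio 0.54, SD of a single-spot ratio 0.049), and 6.57% of genes had higher ratios. The change of Il1rn relative to Il1b does not depend on how arrays are scaled by a constant. It was 2.12 on the log2 scale with the vector, and between 1.63 and 2.15 under the 5 other scalings and background corrections. With vector and inhibitor against Control this relative change was 1.69, with 1.34 to 1.73 under those alternatives. Between HSD1+BVT and HSD1 it was -0.44, with -0.44 to -0.29. Most of the relative change with the vector came from Il1b, whose own log2 ratio was -1.58.

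**Figure D1:**
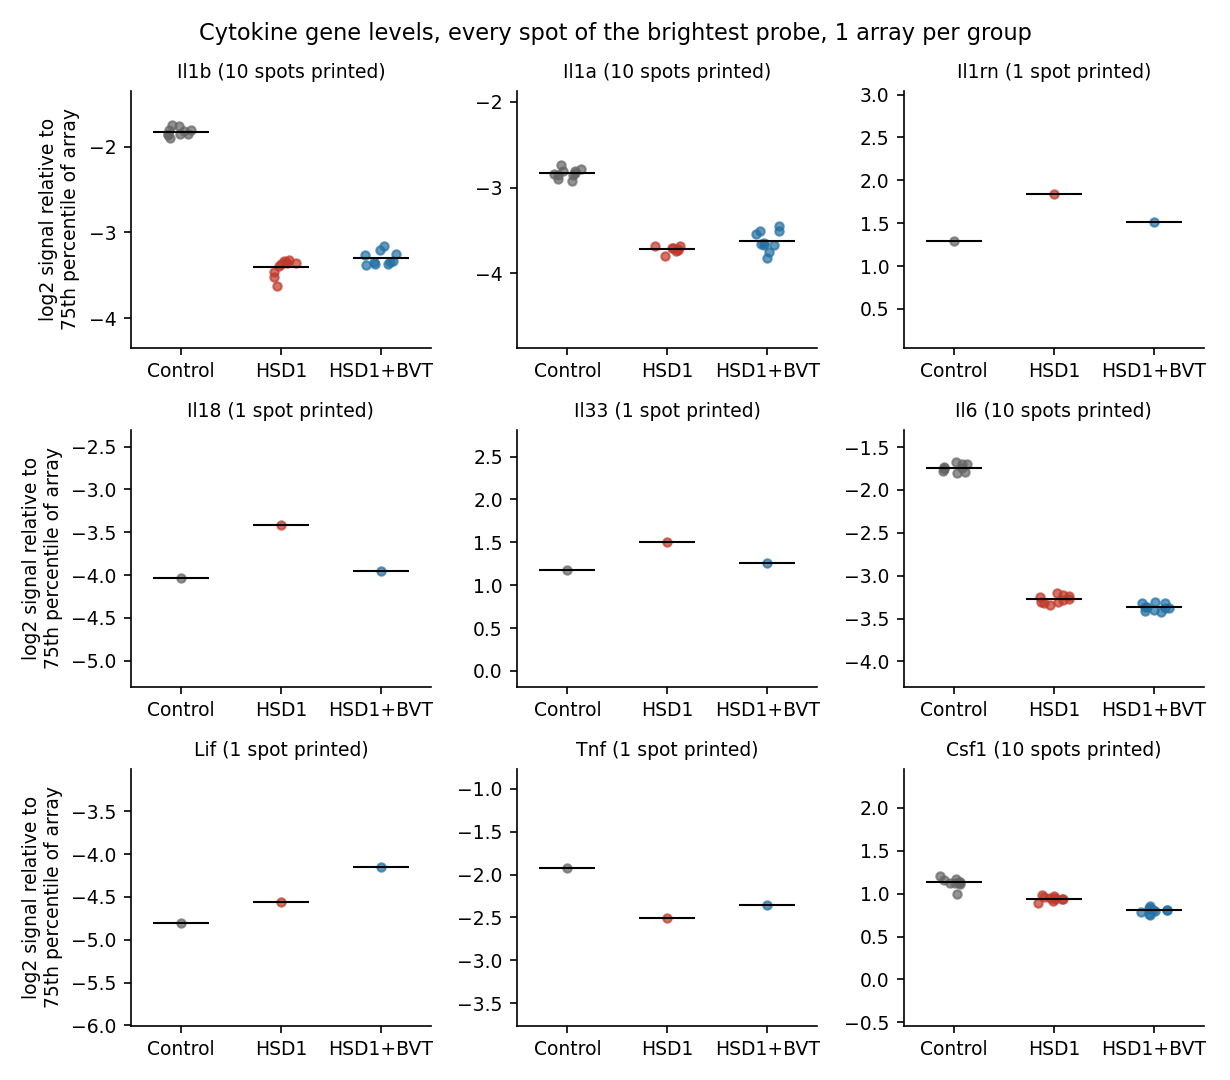
Level of each cytokine gene on the Control, HSD1 and HSD1+BVT arrays (log2 signal relative to the array's 75th percentile; each panel spans 3 log2 units), with a point per spot of the brightest probe and a bar at their mean. The Control spots of Il1b, Il6 and Il1a lie above all spots of the other arrays, whereas Il1rn, Il18 and Il33 are highest on the HSD1 array.

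Il18 and Il33 encode interleukin-1 family members that cells can hold in store before stimulation. Il18, whose product is also cleaved by caspase-1, gave levels of -4.04 for Control, -3.41 for HSD1 and -3.95 for HSD1+BVT. It was 1.54-fold higher with the vector (log2 0.63, SD of a single-spot ratio 0.10), the highest ratio of the 9 members, and 4.71% of genes had higher ratios. Il33, an alarmin stored in the nucleus, had levels of 1.18, 1.51 and 1.26 in the same order. Its ratio with the vector was 1.26-fold (log2 0.33, SD of a single-spot ratio 0.053). Both genes stood highest on the HSD1 array, and their Control and HSD1+BVT levels differed by 0.08 and 0.09, which for Il18 is less than the single-spot SD of 0.10. The sign of that Il18 difference turned in 4 of the 5 other scalings and background corrections, the lowest being -0.10. The remaining alternatives could not change it, since the gene rests on 1 spot that was well above background and not dropped.

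Lif encodes leukemia inhibitory factor. Control, HSD1 and HSD1+BVT had levels of -4.80, -4.55 and -4.15, highest with vector and inhibitor. The log2 ratio with the vector was 0.24 and the SD of a single-spot ratio at this dim signal was 0.14. Against Control, HSD1+BVT was 1.56-fold higher (log2 0.65), which was 0.21 after the normexp background correction that adds an offset to dim signals.

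Tnf stood at -1.92 on the Control array, -2.51 with the vector and -2.36 with vector and inhibitor, lower on both arrays with the vector. Its log2 ratio with the vector was -0.59 (SD of a single-spot ratio 0.069), and 2.34% of genes had lower ratios. With vector and inhibitor it was 1.35-fold lower than in Control. Its ratio was under 2-fold in both comparisons with Control.

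Csf1 stood at 1.13 ± 0.053 (SD, 10 spots) in Control, 0.94 ± 0.027 with the vector and 0.81 ± 0.033 with vector and inhibitor. The 3 sets of spots did not overlap, though the nearest Control and HSD1 spots were only 0.022 apart and the nearest HSD1 and HSD1+BVT spots 0.026. The gene was 1.14-fold lower with the vector and 1.25-fold lower with vector and inhibitor, so a difference well under 2-fold exceeded the error between spots. Whether it exceeds the spread between cultures is unknown.

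Adding BVT.2733 to the vector left every member within 2-fold of the vector alone. None of the 9 was called, where 2.07% of 11701 genes differed 2-fold or more: 1.49% were higher and 0.581% lower, or 0.316% lower among genes at levels from -4 to -2. Of the members, 5 lay below 0, as did 48.8% of genes, and the members' median log2 ratio was -0.09 beside 0.01 over all genes. The ratios ran from -0.54 for Il18 to 0.40 for Lif, or -0.46 and 0.03 for these genes after the normexp correction. Il6 stood at -0.09 (SE from spots 0.019), Il1b at 0.11 (0.039) and Il1a at 0.10 (0.040). After the normexp correction Il1b was at -0.08 and Il1a at -0.06. The other Il1a probe was at -0.46, and the mean over both probes at -0.18, so neither gene has a settled direction here. Tnf stood at 0.15, or -0.09 after the same correction. Il1rn and Il33 were at -0.33 and -0.24, larger than their single-spot SDs of 0.055 and 0.056.

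Between HSD1+BVT and Control, 2 members were again called, Il6 and Il1b, both lower. In this comparison 0.751% of 11718 genes were lower 2-fold or more, 0.913% of those at levels from -4 to -2, and 2.94% were higher. Below 0 lay 5 of the 9 members and 41.8% of genes, and the members' median was -0.33 beside 0.05 over all genes. Il6 was 3.09-fold lower (log2 -1.63, SE from spots 0.018) and 15 genes had lower ratios. Il1b was 2.78-fold lower (log2 -1.47, SE from spots 0.029) and 25 genes had lower ratios. Il1a stood at -0.78 by its brighter probe and -0.70 by the other. Il1rn was 1.16-fold higher. The comparisons of HSD1 and of HSD1+BVT with Control share the Control array, so their values for a gene are not independent of each other.

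**Figure D2:**
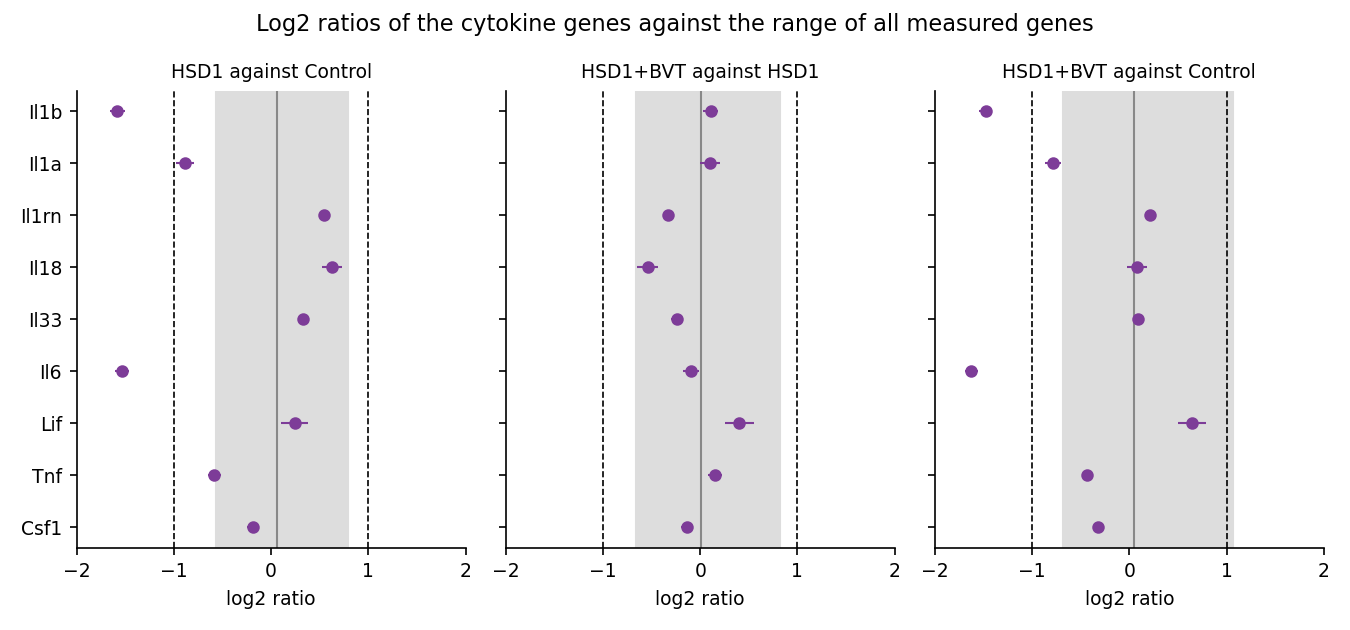
Log2 ratio of each cytokine gene in the 3 comparisons, with bars of 1 SD of a single-spot ratio at like signal; the grey band holds 95% of all measured genes, the grey line is their median and dashed lines mark 2-fold. Il1b and Il6 lie beyond 2-fold in both comparisons with Control, and all 9 genes lie within 2-fold between HSD1+BVT and HSD1.

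The calls on Il6 and Il1b did not depend on the scaling tried. Il1b with the vector lay between -1.64 and -1.11 and Il6 between -1.58 and -1.11 over 8 alternatives. The smallest size was in the normexp correction, and all 8 kept both genes past 2-fold. Among the 8, the settings for dim probes, outlier spots and the mean over probes could not change these ratios. Each gene has 1 probe, well above background, with no dropped spot. Only the other scalings and background corrections therefore tested these calls. Neither gene enters a count restricted to levels above 0. Among all genes, called genes split into 158 higher and 65 lower with the vector, and into 120 and 88 after quantile normalization, 114 and 92 after cyclic loess and 113 and 90 in the values the authors deposited. For HSD1+BVT against Control the split was 344 higher and 88 lower, and 226 and 133, 267 and 125, and 190 and 149 in the same order. Between HSD1+BVT and HSD1 the split was 174 higher and 68 lower, and with no filter on dim probes 518 higher and 1015 lower.

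**Figure D3:**
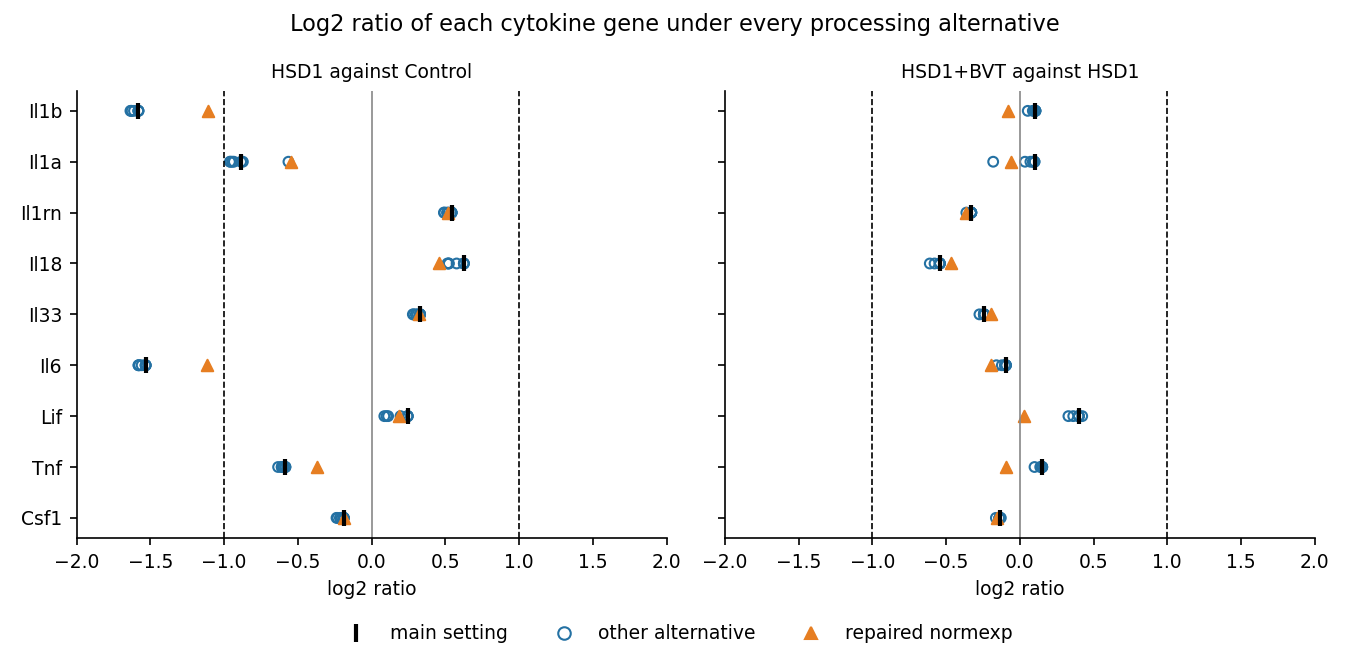
Log2 ratio of each cytokine gene for HSD1 against Control and for HSD1+BVT against HSD1, with a black tick for the reported value, open circles for the alternatives and an orange triangle for the normexp background correction; dashed lines mark 2-fold. Il1b and Il6 stay past 2-fold with the vector in every alternative that measures them, and Il1a stays short of it, its lowest value being -0.96. For Il1b and Il6 the settings for dim probes, outlier spots and the mean over probes could not move the value.

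Receptors, signalling genes and related cytokines were examined as 5 lists. Across these lists of 87 further pathway genes, 76 had a matched probe and 60 were measured, meaning well above background on both arrays compared, in each comparison. None of the 60 was called with the vector, where 1.88% of all genes were, a share that comes to about 1 gene in 60, and their median log2 ratio was 0.09 beside 0.06 over all genes. With vector and inhibitor against Control, 1 of 60 was higher and 1 was lower, or 3.33%, where 3.69% of all genes were called. None of 60 was called between HSD1+BVT and HSD1. The other 16 matched genes have no ratio counted here, and those well above background on 1 of the arrays compared are described after the lists. The most extreme ratios named for each list are those among measured genes.

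The receptors are named for their role and not by the naming rule. Il6st, which encodes gp130, had log2 ratios of 0.06 with the vector and 0.01 with vector and inhibitor against Control. Il6r, the interleukin-6 receptor, had a log2 ratio of 0.32 with the vector, and Lifr, the partner of gp130 for leukemia inhibitory factor, one of 0.40. Lifr is dim, and that ratio was 0.25 after the normexp correction. Lifr stood at -0.55 between HSD1+BVT and HSD1 and at -0.15 between HSD1+BVT and Control. Tnfrsf1a, the main TNF receptor, had levels of 2.24, 2.30 and 2.47 in Control, HSD1 and HSD1+BVT, and Tnfrsf1b a log2 ratio of -0.50 with the vector. Il1r2, a decoy receptor that captures interleukin-1 without signalling, had levels of -1.79, -1.41 and -1.12, highest with vector and inhibitor and 1.59-fold above Control there. Il1rl1, the receptor of interleukin-33, had levels of 3.67, 3.80 and 3.64 by its brighter probe. Its other probe was far dimmer, at -4.25, -4.31 and -4.46, so the level of this gene depends on the probe. Csf1r, the CSF-1 receptor, had levels of -2.52, -2.47 and -1.93, and its other probe had -4.03, -3.72 and -3.86.

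In the list of interleukin-1 family receptors and signalling, 14 of 18 genes were measured with the vector and 11 lay above 0 (median 0.16). The most extreme of these 14 was Traf6, an adaptor of the pathway, at 0.47. Il1rap, the shared accessory protein of the interleukin-1 and interleukin-33 receptors, stood at -5.24 in Control, -4.97 with the vector and -4.04 with vector and inhibitor. It was 2.31-fold higher with vector and inhibitor than in Control. That call rests on 1 dim probe: its other probe gave a log2 ratio of 0.32, and the normexp correction gave 0.45.

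In the interleukin-6 and leukemia inhibitory factor list, 16 of 20 genes were measured, with 7 below and 9 above 0 with the vector (median 0.05). Il11, another cytokine that signals through gp130, had the most extreme ratio, at 0.66. Socs1, a feedback inhibitor of cytokine signalling, had the most extreme ratio between HSD1+BVT and HSD1, at 0.87, and 0.04 after the normexp correction. Osm, the oncostatin M gene, stood at 0.69 for HSD1+BVT against Control and at 0.23 after it.

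Of 17 genes of TNF receptors and signalling, 15 were measured and 8 lay below 0 with the vector (median -0.02). Birc2, an inhibitor of apoptosis that binds the TNF receptor complex, was the most extreme, at 0.62. The most extreme ratio for HSD1+BVT against Control was -0.42, for Tnfaip6, a secreted hyaluronan-binding protein. Between HSD1+BVT and HSD1 it was 0.35, for the lymphotoxin gene Ltb, which stood at -0.17 after the normexp correction.

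Among 8 CSF ligands and receptors, of which 6 were measured, Il34 was the measured gene that was called. Il34 encodes the other ligand of the CSF-1 receptor. Control, HSD1 and HSD1+BVT had levels of -0.95, -1.52 and -1.97, highest in Control. It was 2.03-fold lower with vector and inhibitor than in Control (log2 -1.02, or -0.94 after the normexp correction, under 2-fold) and 1.49-fold lower with the vector. Among the 6 measured genes Csf1r had the most extreme ratio between HSD1+BVT and HSD1, at 0.54 by its brighter probe and -0.14 by the other.

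Most other interleukins were near background: of 24 listed, 21 had a probe and 9 were measured on both the HSD1 and Control arrays. None of the 9 was called, and their median was 0.10. Il15, a survival factor of lymphocytes, stood at 0.51 with the vector. Among measured genes Il20 had the most extreme ratio in both comparisons of the inhibitor array, at 0.66 against HSD1 and 0.82 against Control.

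Some dim list genes were well above background on only 1 of the arrays compared, and for these a bound was computed. The dimmer side was set to its array's dimmest signal still counted as well above background, or to its own measured signal where that was higher. The latter held for Sigirr and Il12a, so their values are the observed ratios, with the dimmer signal not well above background. With the vector, 1 of 3 such genes had a bound past 2-fold: Il12b, a subunit of interleukin-12, was at least 2.08-fold higher in Control than in HSD1. Sigirr, an inhibitory receptor of the interleukin-1 family, was 1.89-fold higher in Control, and Il25 was higher in HSD1 by a bound under 2-fold. Between HSD1+BVT and HSD1, Il12a, the other subunit of interleukin-12, was 2.39-fold higher in HSD1. Sigirr was 2.01-fold and Csf3r, the G-CSF receptor, at least 1.87-fold higher in HSD1+BVT. Between HSD1+BVT and Control, Csf3r was at least 2.26-fold and Il25 at least 2.18-fold higher in HSD1+BVT. In the same comparison Il12b was at least 2.01-fold and Il12a 1.90-fold higher in Control. These genes were named after their values were seen, each rests on signals near background, and they lie in both directions.

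**Figure D4:**
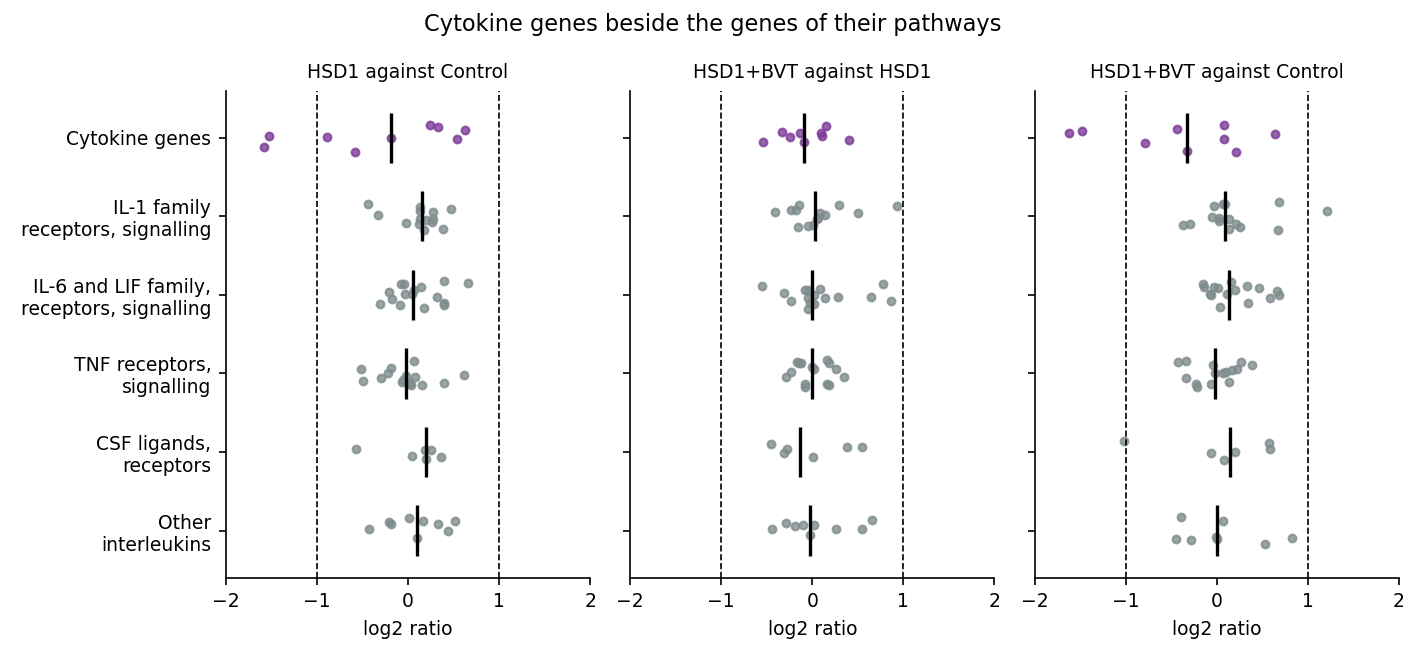
Log2 ratios of the 9 measured cytokine genes (purple) and of the measured genes of 5 pathway lists (grey) in the 3 comparisons, with a black bar at the median of each list and dashed lines at 2-fold. With the vector, none of the 60 list genes plotted lies beyond 2-fold, and Il1b and Il6 do.

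By the naming rule, the genes nearest in pattern to Il1b over the 3 arrays, among 3449 genes with a mean level above 0, were Lypd1, Mmp12 and Ccl7. Their distances from Il1b in centred log2 levels were 0.32, 0.41 and 0.44. Those nearest to Il6 were Lypd1, Ccl7 and Esm1, at 0.40, 0.50 and 0.53. Ccl7, a chemokine for monocytes, had levels of 2.43, 1.39 and 1.48 for Control, HSD1 and HSD1+BVT. Mmp12, the macrophage elastase, had levels of 1.36, -0.02 and 0.46. Lypd1, the nearest to both members, had levels of 0.89, -0.31 and -0.18, and Esm1 had 1.04, 0.22 and -0.05. With 3 arrays, such likeness is a description only.

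Cell type markers were set beside these values because cytokines can come from cells other than cardiomyocytes. Of 14 macrophage and leucocyte markers, which include Csf1r, 9 of 11 measured lay above 0 with the vector. Their summed level, in multiples of the 75th percentile, was 13.6, 19.4 and 15.0 for Control, HSD1 and HSD1+BVT, and Itgam, Cd163 and C1qa were not well above background on at least 1 array. Lyz2 made up 83.5% to 87.4% of each sum, and without it the sums were 2.19, 2.43 and 2.48. Ptprc, the marker shared by leucocytes, had a log2 ratio of -0.52 with the vector. Mrc1, the mannose receptor of macrophages, was 2.96-fold higher with the vector (log2 1.57, or 0.81 after the normexp correction, under 2-fold). With vector and inhibitor against Control it was 2.04-fold higher (log2 1.03, or 0.31 after that correction). Of 9 fibroblast markers, 6 lay below 0 with the vector and none was called, with Lum lowest, at -0.88. The sums were 190.2, 190.5 and 182.0. Col1a2 made up 40.5% to 46.8% of each sum, and without it the sums were 113.2, 106.6 and 96.9. With vector and inhibitor against Control, 6 of the 9 lay below 0 and 3 above. The dim gene Fbln1 was called there, 2.27-fold lower. The sums for cardiomyocyte markers were 358, 400.2 and 399. The 5 measured endothelial markers of 8 all lay above 0 with the vector, with sums of 5.22, 8.06 and 9.63. Sox17, a dim gene at -6.24 in Control, was called with the vector, 2.09-fold higher. Kdr made up 91.6% to 94.1% of each sum, and without it the sums were 0.400, 0.681 and 0.565. Between HSD1+BVT and HSD1, 3 of the 5 endothelial markers lay below 0 (median -0.30). Tek, also dim, was lowest and was called there, at -1.05 or 2.07-fold lower. Smooth muscle and pericyte markers, all 5 measured, summed to 40.6, 46.3 and 35.6. Acta2 made up 70.8% to 76.6% of each sum, and without it the sums were 9.67, 10.8 and 10.4. In both comparisons of HSD1+BVT, 4 of the 5 lay below 0 and 1 above. Rgs5, a dim gene, was lowest, 2.15-fold below HSD1 and 2.64-fold below Control. Of 5 matched lymphocyte and mast cell markers, none was well above background in Control, 2 were in HSD1 and 1 was in HSD1+BVT. Over all genes, 40.8% lay below 0 with the vector, 48.8% between HSD1+BVT and HSD1 and 41.8% between HSD1+BVT and Control. The part of the marked cell types in the cytokine levels was not tested.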

How the data were processed

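Cells of each group were pooled and their RNA labelled with Cy3, per the labels' protocols. The deposited intensity values are the background-subtracted processed signal of each spot, and its median signal and local background, from Agilent Feature Extraction version 11.0.1.1, per the file headers and the submitters' processing notes. A second deposited table holds the authors' own log2 normalized values, made with software that these sources do not name, and served as an alternative. Processed signals were divided by the array's percentile 75 (1320 in Control, 1169 in HSD1, 1549 in HSD1+BVT) and put on a log2 scale. Control spots and outlier spots (311, 409 and 363) were dropped, then spots of one probe were averaged; a probe was well above background where most of its spots were. Of 30367 probes, 18005 matched 1 gene through RefSeq (assembly GRCr8) and 12362 did not. The files annotate probes on an older build, so no gene coordinates are given. The probe with the highest mean stands for a gene. No spot was saturated, and 81.2% to 82.5% of spots were well above background. The number of arrays limits the precision.

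The members and gene lists were chosen with earlier results of these data known. Named genes were the members, the called genes of each list or else its most extreme gene, and the 3 genes nearest in pattern to each called member; among those nearest, symbols that are only database identifiers were left out. Alternatives were quantile normalization, cyclic loess and normexp (limma version 3.58.1), median centring, the deposited values, filters on dim probes, outlier spots kept, the mean over probes, and a 1.5-fold threshold. The code was tested on simulated data.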

Additional observations from a re-analysis of the deposited data

How the results depend on the processing

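No paired analysis was possible because each group has 1 array. The calls on Il6 and Il1b against Control, and the absence of called members between HSD1+BVT and HSD1, held in each alternative at 2-fold that measures those genes. For Il6 and Il1b the settings for dim probes, outlier spots and the mean over probes could not change the ratios, so they tested nothing. With levels above 0 only, 3 members were left and 0 were called against Control in either comparison, since Il6 and Il1b lie below that level. At 1.5-fold, 5 members were called with the vector (Il6, Il1b, Il1a and Tnf lower, Il18 higher), where 942 of 11871 genes were called. Tnf only just passed, at 1.5001-fold. After the repaired normexp correction Il1a, Tnf and Il18 stood at -0.55, -0.37 and 0.46 on the log2 scale, all under 1.5-fold. With vector and inhibitor against Control 4 were called (Il6, Il1b and Il1a lower, Lif higher), where 1594 of 11718 genes were. Between HSD1+BVT and HSD1 the count was 0, where 1060 of 11701 genes were called. Over all genes, the 223 called with the vector became 93 after the repaired normexp correction, 1091 with no filter on dim probes, 39 with levels above 0 only and 942 at 1.5-fold. The 242 called between HSD1+BVT and HSD1 became 76, 1533, 26 and 1060 in the same order, and the 432 called between HSD1+BVT and Control became 132, 1449, 41 and 1594. Of 357 ratios of members and list medians recomputed, 299 moved by less than the technical SD (for medians, less than 0.1). The other 58 moved by more, and no called member changed sign. The 299 include values that could not move. Among these are members with 1 probe and no dropped spot under the settings for dim probes, outlier spots and the mean over probes. The count therefore says little about stability. The planned normexp setting could not be fitted on the HSD1 array, where 5 spots have a local background at or above their signal; leaving those spots out of the fit was chosen after seeing the data. Its offset of 50 adds a constant to dim signals and so makes the ratios of dim genes smaller. Lif, Il18 and the dimmer Il1a probe are the members whose signal over background limits precision most.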
